A study of Homo sapiens with 6 samples.

Results

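The nuclear receptors outside the estrogen-related receptor (ERR) family were described for SH-SY5Y cells, a human neuroblastoma line, that overexpressed mouse *Esrrg*, the gene for ERRγ. The members were a listed set of 37 genes, matched by Ensembl identifier to GENCODE symbols, of the 67016 genes in the count table. All 37 were protein-coding. The list was set by family, but with earlier results of these data known.

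Nuclear receptors are transcription factors that bind DNA through zinc fingers, many of them under the control of a small lipid-soluble ligand such as a steroid, thyroid hormone, retinoic acid or a fatty acid. Many bind variants of a common half-site, as dimers with a retinoid X receptor, as homodimers or, like the ERRs and several orphan receptors, as monomers. In neuroblastoma cells the best known of them are the retinoic acid receptors, because retinoic acid drives such cells to differentiate.

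The control group was infected with an adenovirus expressing GFP (Ad CMV GFP, 3 libraries, replicates 1, 3 and 4). The other group was infected with an adenovirus carrying a 3xFlag-tagged coding sequence of mouse *Esrrg* behind the constitutive CMV promoter (Ad CMV 3xFlag-*Esrrg*, 3 libraries, replicates 2, 3 and 4). Both groups were grown in medium with serum, which itself holds hormones, and RNA was taken 24 h after infection, so that control cells carried a virus too. The comparison asks what the added ERRγ does to the RNA of these cells. The labels do not say whether the replicates were separate cultures, and the p-values below measure the spread between these libraries, which may be technical.

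Levels are given as normalized CPM, counts per 1000000 reads on genes after TMM scaling. A gene was called higher or lower at a Benjamini-Hochberg adjusted p below 0.05 over all 24500 genes tested with edgeR's quasi-likelihood test and a fold change of at least 1.5. All adjusted p-values below come from that test.

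The *ESRRG* counts followed the labels. They were 2357, 2796 and 2876 with Ad CMV GFP and 15228, 25994 and 26497 with Ad CMV 3xFlag-*Esrrg*, a log2 fold change of 3.02 (SE 0.14, adjusted p = 6.3e-07). The reads were counted on the human gene while the virus carries the mouse sequence, so reads of the cells' own gene and of the virus cannot be told apart. Reads on genes ranged from 24969759 to 29700979 per control library and from 26513620 to 40859666 per *Esrrg* library. Reads assigned to no gene made up 51.3% to 52.2% of the control libraries, and 46.6%, 31.6% and 29.5% of *Esrrg* replicates 2, 3 and 4. Of 12 markers of adrenergic neuroblastoma cells 10 were detected, with *TH* and *CHGA* listed at 0 in all libraries, and all 8 mesenchymal markers were detected. Of the 31-base words of *CHGA* 90.2% also lie in alternate contigs of GRCh38, where reads count as aligned to several places if those contigs were used, so its 0 need not mean absence. For *TH* the share was 0. The label calls the cells neuronal progenitors. The adrenergic markers summed to 866 to 925 normalized CPM in the control and to 616 to 815 in the *Esrrg* libraries, and their part in the results below was not tested. Of 5 immune and endothelial markers 2 were detected, and the list summed to at most 3.03 normalized CPM.

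The promoters of the members were read for half-sites, because many of these receptors, ERRγ included, recognise related letters. RefSeq start sites gave windows of 250 bases for 33 of the 37 genes, 77 windows in all, and *VDR*, *NR4A2*, *NR2F6* and *HNF4G* were not matched. The nuclear receptor half-site AGGTCA, searched on both strands, was found in 12 of the 77 windows (15.6%), belonging to 9 genes, against 12.1% of all 35116 promoters. The ERR half-site AAGGTCA, which contains the first one, was found in windows of *PPARG* and *NR2E1* (4 of 77, 5.19%, against 3.44% of all). Windows from nearby starts of the same gene overlap, so a shared site in *PPARG* and a shared site in *ESR2* are counted repeatedly. The longer form TNAAGGTCA was found in *NR2E1* (0.854% of all). The letters GTTCANNNNNNGTTCA, a direct repeat of the kind known as a retinoic acid response element with 5 bases between its 6-letter units, was found in *RARB* alone among the members and in 0.0484% of all promoters. A match is a run of letters and no evidence of binding. One window is shown for each tested member with a match (GRCh38.p14, the gene's own strand, 5′ to 3′), with the matched letters in capitals.
*RARB* (chr3:25428013-25428262, plus strand, repeat 52 to 37 bases before the start): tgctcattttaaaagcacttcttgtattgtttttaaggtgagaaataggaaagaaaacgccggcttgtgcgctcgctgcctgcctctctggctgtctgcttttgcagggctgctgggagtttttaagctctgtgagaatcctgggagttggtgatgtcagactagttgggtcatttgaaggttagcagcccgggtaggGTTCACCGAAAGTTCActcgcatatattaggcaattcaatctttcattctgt
*RARA* (chr17:40308930-40309179, plus strand, half-site 230 to 225 bases before the start): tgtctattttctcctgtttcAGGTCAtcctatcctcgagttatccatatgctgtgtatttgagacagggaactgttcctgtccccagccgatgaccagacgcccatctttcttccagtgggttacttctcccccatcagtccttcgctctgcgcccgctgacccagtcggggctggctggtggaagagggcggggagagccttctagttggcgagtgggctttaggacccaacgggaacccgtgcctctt
*PPARG* (chr3:12287118-12287367, plus strand, half-site 217 to 212 and ERR half-site 185 to 179 bases before the start): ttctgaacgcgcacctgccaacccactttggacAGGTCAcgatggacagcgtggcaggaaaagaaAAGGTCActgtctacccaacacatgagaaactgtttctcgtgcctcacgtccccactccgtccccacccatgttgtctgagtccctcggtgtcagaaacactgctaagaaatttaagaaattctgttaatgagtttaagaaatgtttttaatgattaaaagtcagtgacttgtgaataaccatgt
*NR1H3* (chr11:47248050-47248299, plus strand, half-site 140 to 135 bases before the start): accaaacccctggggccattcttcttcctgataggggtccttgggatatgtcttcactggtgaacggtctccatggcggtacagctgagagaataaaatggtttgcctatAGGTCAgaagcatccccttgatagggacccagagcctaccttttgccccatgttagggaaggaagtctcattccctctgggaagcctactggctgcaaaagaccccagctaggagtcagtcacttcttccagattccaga
*ESR2* (chr14:64294372-64294621, minus strand, half-site 128 to 123 bases before the start): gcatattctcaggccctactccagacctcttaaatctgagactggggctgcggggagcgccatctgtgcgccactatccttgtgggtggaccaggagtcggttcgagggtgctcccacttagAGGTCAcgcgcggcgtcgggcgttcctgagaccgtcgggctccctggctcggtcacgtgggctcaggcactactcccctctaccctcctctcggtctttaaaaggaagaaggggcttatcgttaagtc

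Detection, set at a mean of 10 or more counts over the 6 libraries, was reached by 29 of the 37 genes. The same 29 passed the filter on low counts. The lowest of them, the mineralocorticoid receptor *NR3C2*, had a mean of 54.3 counts and the highest of the other 8, *NR4A2*, had 7.33. Per kilobase of exon, the orphan receptor *NR2F1* (COUP-TFI, a regulator of neuronal identity) was highest in control cells at 17.2 ± 0.207 normalized CPM (SD, n = 3). *NR1D2* (REV-ERBβ, a heme-binding repressor) followed at 13.8 ± 0.715, *NR2C2* (TR4) at 10.9 ± 0.414 and the retinoic acid receptor *RARG* at 10.3 ± 0.815. The ranges of *NR2C2* and *RARG* overlapped, and *NR2C2* shares 61.9% of its exon bases with opposite-strand genes. Reads in shared exons cannot be assigned, yet levels were divided by the full exon length. The level of *NR2C2* may therefore be too low in both groups, and its place among the receptors is not settled. With Ad CMV 3xFlag-*Esrrg* the order opened with *NR2F6* (EAR2, an orphan repressor) at 22.5 ± 3.44, *NR2F1* at 21.4 ± 2.78 and *NR1H2* (LXRβ, an oxysterol receptor) at 18.5 ± 4.57. These 3 lay within one another's spread.

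**Figure D1:**
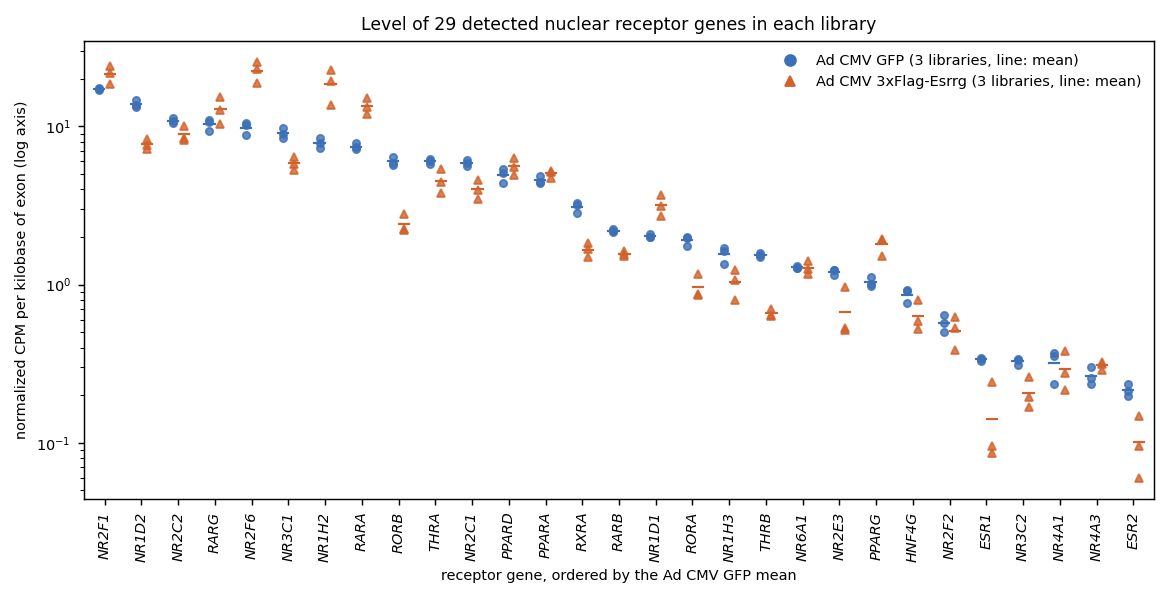
Level of each of the 29 detected receptors in every library, in normalized CPM per kilobase of exon on a log axis, with a line at each group's mean and genes ordered by the Ad CMV GFP mean. Circles are the 3 control libraries and triangles the 3 *Esrrg* libraries. *RORB*, *THRB* and *RXRA* lie lower and *NR2F6*, *NR1H2* and *RARA* higher in all triangles than in any circle.

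The 8 genes below detection were *RXRG*, *PGR*, *HNF4A*, *NR1H4*, *NR2E1*, *VDR*, *NR4A2* and *NR5A2*. *RXRG* (a retinoid X receptor), *PGR* (the progesterone receptor) and *HNF4A* (a liver and gut factor) had 0 counts in all 6 libraries. A count of 0 allows up to 3 counts, between 0.0880 and 0.112 normalized CPM depending on the library. *NR1H4*, the bile acid receptor, had 1 count in *Esrrg* replicate 4 and 0 elsewhere, and *NR2E1* (TLX, a neural stem cell factor) had 2 counts in control replicate 1 and 0 elsewhere. The vitamin D receptor *VDR* had 1, 5 and 7 counts in the control and 3, 6 and 7 in the *Esrrg* libraries. *NR4A2* (NURR1), which dopaminergic neurons require, had 15, 6 and 11 counts against 3, 6 and 3. *NR5A2* (LRH-1, a phospholipid-binding receptor) had 1, 2 and 0 counts against 7, 10 and 6, which do not overlap. With each control library set to 3 counts, the *Esrrg* mean was 2.5 times the control level. At counts this low that value is not a lower bound. *NR5A2* was below the filter and was not tested in the fit reported here.

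Among the 29 tested receptors, 5 were called higher (17.2%) and 10 lower (34.5%) with Ad CMV 3xFlag-*Esrrg*. Over all genes tested the calls were 17.3% higher and 16.8% lower, and over protein-coding genes 25.9% and 12.4%. Called in either direction were 51.7% of the receptors, 34.1% of all genes and 38.3% of protein-coding genes. When counts were scaled by library size alone, which moves the median log2 fold change of all genes by -0.32, 2 receptors were called higher and 16 lower, against 8.98% and 30.9% of all genes. The higher ones were *RARA*, *PPARG*, *NR1H2*, *NR1D1* and *NR2F6*, and the lower ones *THRB*, *RXRA*, *NR1D2*, *RORA*, *RORB*, *ESR1*, *ESR2*, *NR3C1*, *NR3C2* and *NR2E3*. Without the fold limit, 21 receptors passed the adjusted p (72.4%), against 47.8% of all genes and 60.0% of protein-coding genes. The values of the groups did not overlap for 21 receptors (72.4%), against 58.1% of all genes and 70.3% of protein-coding genes, so that this share was near that of protein-coding genes. The median log2 fold change of the 29 was -0.40, beside -0.10 for all genes tested and 0.12 for protein-coding genes.

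**Figure D2:**
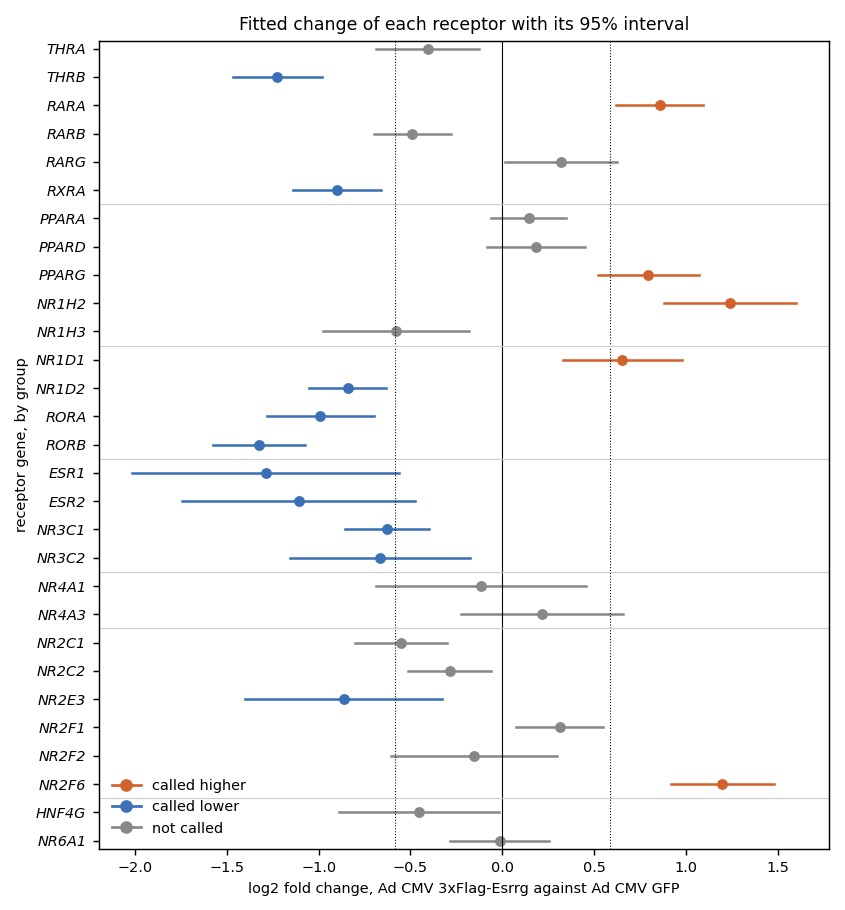
Fitted log2 fold change of each tested receptor (Ad CMV 3xFlag-*Esrrg* against Ad CMV GFP, 3 libraries each) with its 95% interval, in functional groups separated by grey lines. The dotted lines mark the 1.5-fold limit and colours mark the 5 genes called higher, the 10 called lower and the 14 not called.

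Of the thyroid hormone and retinoid receptors, 1 was called higher and 2 lower of 6 tested. Over protein-coding genes 25.9% were called higher and 12.4% lower. Nothing particular to a group this small can be read from its count, here and in the groups below. *THRB*, thyroid hormone receptor β, stood at 16.8, 16.3 and 17.4 normalized CPM in the control libraries and at 7.71, 7.01 and 6.90 in the *Esrrg* libraries. No *Esrrg* value reached the control range (log2 fold change -1.23, SE 0.11, adjusted p = 3.0e-05). *RXRA*, a partner of many members, had 34.2, 38.7 and 39.6 in the control and 18.1, 20.2 and 22 in the *Esrrg* libraries. It fell by 0.90 on the log2 scale (SE 0.11, adjusted p = 0.00013). *RARA*, retinoic acid receptor α, had 33.9, 37.1 and 35.0 against 57.0, 63.0 and 72.1, and rose in all 3 libraries above every control value (log2 fold change 0.86, SE 0.11, adjusted p = 0.00016). Of its exon bases 21.4% lie in exons of opposite-strand genes, among them *RARA-AS1*, which had a mean of 81.5 counts and was not called. After a correction of each library for GC content and gene length, the log2 fold change of *RARA* was 0.39 and it was not called.

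*RARB*, retinoic acid receptor β and the carrier of the repeat shown above, had 21.2, 20.7 and 20.2 against 15.3, 14.6 and 14.3. The groups did not overlap and the adjusted p was 0.0019, but the log2 fold change of -0.49 (SE 0.10) was under the fold limit. *THRA*, thyroid hormone receptor α, was likewise under it, at -0.40 (SE 0.13, adjusted p = 0.023). Its value depended on the fit, and it was called lower in 5 of 17 others, at -0.67 without *Esrrg* replicates 3 and 4, -0.79 after correction for GC and length, and -0.82 with the share of reads assigned to no gene as a covariate. Without *Esrrg* replicate 2 it was -0.18 (adjusted p = 0.071). *RARG* had 48.0 to 55.9 in the control and 53.0 to 79.0 in the *Esrrg* libraries, with overlap and an adjusted p of 0.078. Its 95% interval ran from 0.02 to 0.63 on the log2 scale.

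Of the receptors for lipids and vitamin D, 2 were called higher and 0 lower of 5 tested, beside 25.9% and 12.4% of protein-coding genes. *NR1H2* stood at 38.9, 45.3 and 41.7 normalized CPM in the control and at 72.5, 104 and 121 in the *Esrrg* libraries. It had the highest fitted log2 fold change of the 29 in this fit, at 1.24 (SE 0.16, adjusted p = 0.00021). Its exons share 22.1% of their bases with the opposite-strand gene *NAPSA*, which had a mean of 14.5 counts. Its paralog *NR1H3* (LXRα) had 7.70, 7.40 and 6.07 in the control and 3.63, 4.87 and 5.61 in the *Esrrg* libraries. That difference ran the other way (log2 fold change -0.58, SE 0.18, adjusted p = 0.022) and lay just under the fold limit. *NR1H3* was called lower in 9 of 17 other fits, among them those scaled by library size alone (-0.92), corrected for GC and length (-0.92), and given the share of reads assigned to no gene as a covariate (-1.13). It was also called without control replicate 4 (-0.67) and without *Esrrg* replicate 4 (-0.71), and was -0.95 without *Esrrg* replicates 3 and 4. In other fits *NR1H3* changed less, with -0.32 without *Esrrg* replicate 2 and -0.36 with the replicate number as a block. Its adjusted p was 0.091 without control replicate 1 and 0.078 without control replicate 3.

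*PPARG*, the fat-cell regulator whose promoter window holds both half-sites, had 11.8, 13.4 and 12.0 in the control and 18.1, 23.4 and 23 in the *Esrrg* libraries. The lowest *Esrrg* value was above the highest control value (log2 fold change 0.80, SE 0.12, adjusted p = 0.00054). *PPARA*, which controls fatty acid oxidation, ran from 57.5 to 64.3 in the control and from 62.4 to 69.0 in the *Esrrg* libraries. Its 95% interval was -0.06 to 0.35 (adjusted p = 0.22). *PPARD*, a broadly expressed receptor for fatty acids, ran from 19.7 to 24.1 and from 22.1 to 28.3, with an interval of -0.08 to 0.45 (adjusted p = 0.23). The groups overlapped for both.

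The REV-ERB and ROR receptors bind the same response elements, the REV-ERBs as repressors and the RORs as activators, and link the clock to metabolism. All 4 were called, 1 higher and 3 lower, beside 38.3% of protein-coding genes called in either direction. *RORB*, which is found mainly in brain and retina, had 62.0, 55.2 and 56.7 normalized CPM in the control and 26.7, 21.5 and 21.2 in the *Esrrg* libraries. It fell by 1.33 on the log2 scale (SE 0.11, adjusted p = 2.4e-05), the lowest fitted value of the 29 in this fit. *RORA* had 33.6, 29.9 and 34.1 against 19.9, 14.7 and 14.6 (log2 fold change -0.99, SE 0.13, adjusted p = 0.00023). *NR1D2* had 84.6, 79.2 and 76.4 against 48.2, 44.1 and 41.7 (log2 fold change -0.84, SE 0.10, adjusted p = 9.8e-05). In each of these 3 genes *Esrrg* replicate 2 was the library nearest the control.

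*NR1D1* (REV-ERBα) went the other way from *NR1D2*. It had 5.50, 5.27 and 5.26 normalized CPM in the control and 7.14, 8.26 and 9.74 in the *Esrrg* libraries, a log2 fold change of 0.65 (SE 0.15, adjusted p = 0.0042). The call was close to the fold limit and was lost in 7 of 17 other fits. Without *Esrrg* replicate 4 the log2 fold change was 0.54. *NR1D1* lies tail to tail with *THRA*, and 18.0% of its exon bases overlap exons on the other strand.

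All 4 detected steroid receptors of the list were called lower, beside 12.4% of protein-coding genes. The glucocorticoid receptor *NR3C1*, the most abundant of them per kilobase, had 89.2, 77.3 and 82.0 normalized CPM in the control and 58.9, 53.1 and 48.7 in the *Esrrg* libraries (log2 fold change -0.63, SE 0.10, adjusted p = 0.00072). The groups did not overlap, but the fold was just past the limit and the call was lost in 8 of 17 other fits. The log2 fold change was -0.57 without control replicate 1 and -0.56 without *Esrrg* replicate 4. *NR3C2* had 2.20, 2.04 and 2.24 against 1.72, 1.28 and 1.12 (log2 fold change -0.67, SE 0.22, adjusted p = 0.029), and its call was also lost in 8 of 17 fits. It was lost when any 1 library other than *Esrrg* replicate 2 was left out, with adjusted p-values from 0.065 (without control replicate 3) to 0.10 (without *Esrrg* replicate 3).

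The estrogen receptors were scarce. *ESR1* (ERα) had 130, 140 and 157 counts in the control and 89, 44 and 40 in the *Esrrg* libraries, or 4.61, 4.53 and 4.74 normalized CPM against 3.33, 1.31 and 1.17. The log2 fold change was -1.29 (SE 0.33, adjusted p = 0.0084). *ESR2* (ERβ) had 79, 78 and 78 counts against 47, 24 and 39, or 2.80, 2.52 and 2.36 normalized CPM against 1.76, 0.713 and 1.14 (log2 fold change -1.11, SE 0.29, adjusted p = 0.0091). In both genes *Esrrg* replicate 2 lay between the control and the other *Esrrg* libraries. Without *Esrrg* replicates 3 and 4 the log2 fold changes were -0.47 for *ESR1* and -0.53 for *ESR2*, and with the share of reads assigned to no gene as a covariate they were -0.03 and -0.30. Neither gene was called in these fits.

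The NR4A receptors are immediate early genes that act without a known natural ligand. *NR4A1* (NUR77) had 2.7, 1.71 and 2.57 normalized CPM in the control and 1.57, 2.02 and 2.79 in the *Esrrg* libraries. *NR4A3* (NOR1) had 1.49, 1.91 and 1.63 against 1.98, 1.81 and 2.05. The groups overlapped in both, and the 95% intervals were -0.69 to 0.46 and -0.23 to 0.66 on the log2 scale (adjusted p = 0.73 and 0.39), so that a change past the fold limit lies within both. Of 10 other immediate early genes tested, 7 were called higher and 0 lower, beside 17.3% higher over all genes and 25.9% over protein-coding genes, with *FOSL1* by 2.14, *ATF3* by 1.56 and *JUN* by 1.5 on the log2 scale.

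Among the NR2 orphan receptors 1 was called higher and 1 lower of 6 tested, beside 25.9% and 12.4% of protein-coding genes. *NR2F6* had 23.4, 26.9 and 27.7 normalized CPM in the control and 50, 60.9 and 68.1 in the *Esrrg* libraries, a log2 fold change of 1.2 (SE 0.13, adjusted p = 7.0e-05). It was the only receptor called higher in all 17 other fits. *NR2F1* had 76.4, 74.6 and 75.1 against 80.8, 94.8 and 105 (log2 fold change 0.31, SE 0.11, adjusted p = 0.034), under the fold limit and with the sign turned in 4 of 17 fits. *NR2F2* (COUP-TFII, a regulator of vessel and neuron development) had 3.23 to 4.17 against 2.51 to 4.02, and the groups overlapped (adjusted p = 0.56).

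*NR2E3*, a photoreceptor factor, had 3.72, 4.01 and 4.02 in the control and 3.14, 1.66 and 1.73 in the *Esrrg* libraries (log2 fold change -0.86, SE 0.24, adjusted p = 0.014). The call rested on replicates 3 and 4 and was lost without either of them (adjusted p = 0.070 without replicate 3 and 0.053 without replicate 4). Without both the log2 fold change was -0.31, and with the share of reads assigned to no gene as a covariate it was -0.06. The testicular receptors *NR2C1* (TR2) and *NR2C2* were both lower in each *Esrrg* library than in any control library, yet by less than the fold limit. *NR2C1* had 36.5 to 39.4 against 22.4 to 29.6 (log2 fold change -0.55, SE 0.11, adjusted p = 0.0026). *NR2C2* had 123 to 133 against 97.3 to 119 (log2 fold change -0.29, SE 0.10, adjusted p = 0.040). Its opposite-strand neighbour *MRPS25* rose (log2 fold change 0.69), and reads of overlapping exons cannot be assigned to either.

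The last group held *HNF4G*, a gut and kidney factor, and *NR6A1* (GCNF, a germ cell repressor). *HNF4G* had 3.66 to 4.43 normalized CPM in the control and 2.49 to 3.82 in the *Esrrg* libraries (log2 fold change -0.45, SE 0.20, adjusted p = 0.080). *NR6A1* had 9.03 to 9.40 and 8.26 to 10.1, with a 95% interval of -0.28 to 0.26 on the log2 scale (adjusted p = 0.93).

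The make-up of the set within each library needs no scaling between libraries. When the per-kilobase levels of all 37 genes were summed, the 5 genes called higher held 19.9% to 22.2% of the sum in the control libraries and 36.4%, 41.0% and 42.7% in *Esrrg* replicates 2, 3 and 4. The 10 genes called lower held 27.3% to 29.6% and then 16.9%, 13.3% and 11.7%. Both are descriptions, since the calls chose the genes. By functional group, the lipid and vitamin D receptors went from 14.6% to 15.7% up to 19.1% to 23.1%, and the REV-ERB and ROR receptors from 17.4% to 19% down to 8.62% to 11.2%. *NR1H2* carried the larger share of the lipid receptors, at 5.51% to 6.35% and 10.2% to 13.9%. The other 6 genes of that group together held 9.05%, 9.39% and 9.0% in the control and 8.99%, 9.33% and 9.12% in the *Esrrg* libraries. Among them *PPARG* went from 0.744% to 0.838% up to 1.13% to 1.32%, and *NR1H3* from 1.01% to 1.28% down to 0.599% to 0.763%. The steroid receptors went from 6.96% to 8.05% down to 3.50% to 5.30%. The thyroid hormone and retinoid receptors as a group held 22.1% to 23.6% and 22.4% to 24.7%, with *RARA* up and *THRB* and *RXRA* down inside it. The 5 most abundant genes of each group of libraries held 46.7% of the sum in the control and 59.7% in the *Esrrg* libraries, while the sum itself ran from 132 to 133 and from 134 to 162 normalized CPM per kilobase.

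**Figure D3:**
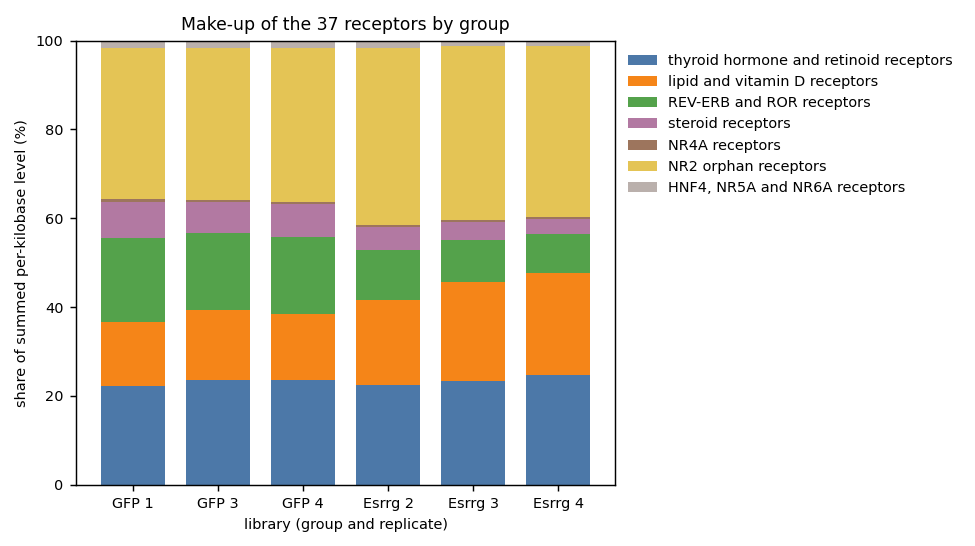
Share of each functional group in the summed per-kilobase level of the 37 receptors (y axis, percent) in each of the 6 libraries. The REV-ERB and ROR share is smaller and the lipid receptor share larger in every *Esrrg* library than in any control library. *NR1H2* carries the latter, while the other 6 genes of that group together hold a similar share in all libraries.

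Ratios between partners and paralogs, taken per length within each library, were described next. These pairs were chosen after the values had been seen and are not tested. *RARA* to *RXRA*, which can form a heterodimer, went from 2.53, 2.44 and 2.25 to 8.02, 7.96 and 8.37. The list did not hold *RXRB*, so the RNA of all retinoid X receptors together was not measured here. *NR1H2* to *NR1H3* went from 4.29, 5.19 and 5.82 to 17.0, 18.1 and 18.3, and *NR1D1* to *NR1D2* from 0.143, 0.146 and 0.152 to 0.326, 0.412 and 0.515. The *Esrrg* libraries lay above all control libraries in each. *NR2F6* to *NR2F1* went from 0.506, 0.596 and 0.608 to 1.02, 1.06 and 1.07, so that the less abundant gene reached the level of the other. The ratio of *RARA* to *RARB* was 2.54-fold and that of *THRA* to *THRB* 1.75-fold higher in the *Esrrg* libraries, both with no overlap. The ratios *PPARD* to *PPARA*, *ESR1* to *ESR2*, *NR3C1* to *NR3C2* and *NR4A1* to *NR4A3* overlapped between the groups.

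Within the *Esrrg* group the libraries were not alike. For 14 of the 15 called genes, all 5 higher and 9 of the 10 lower, replicate 2 was the library nearest the control. The exception was *RXRA*, for which replicate 2 was the lowest of all libraries. Replicate 2 also had the lowest *ESRRG* count and a share of reads assigned to no gene (46.6%) nearest the control. With that share as a covariate 2 receptors were called higher (*RARA* and *NR2F6*) and 7 lower, where all genes gave 7.24% and 5.40%. Of the 10 genes called lower above, *THRB*, *RXRA*, *NR1D2* and *RORB* were among the 7, and the others were *THRA* (-0.82), *NR1H3* (-1.13) and *NR2F2* (-0.79), which had not been called. The share differed between the groups in all libraries, and with 6 libraries it and the virus cannot be told apart. In bulk RNA, fewer cells that express a gene and less of its RNA per cell cannot be told apart either.

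**Figure D4:**
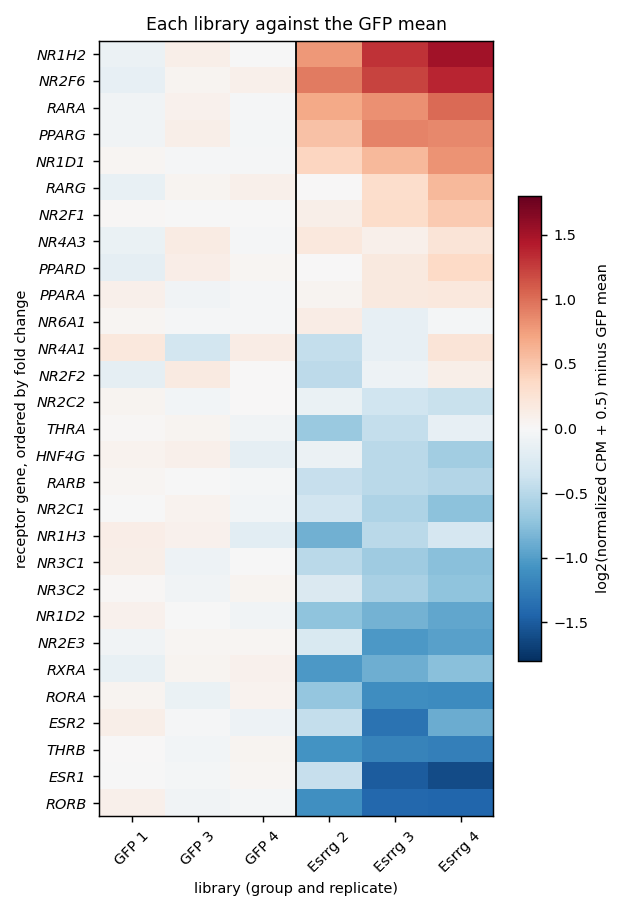
Each library's log2(normalized CPM + 0.5) minus the Ad CMV GFP mean for the 29 tested receptors (colour scale, log2 units), ordered by fold change. The 3 control columns are pale, and *Esrrg* replicate 2 is paler than replicates 3 and 4 in most rows, with *RXRA* an exception.

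The receptors called in every one of the 17 other fits were *NR2F6*, *THRB*, *RXRA* and *RORB*. Across these fits *NR2F6* ran from 0.59 to 1.42, *THRB* from -1.54 to -1.04, *RXRA* from -1.31 to -0.72 and *RORB* from -1.63 to -1.0 on the log2 scale. The 17 leave out the test against 1.5-fold and the 2-fold limit. Under the 2-fold limit *RXRA*, at -0.90 as reported, was not called. *NR1H2* and *RORA* lost the call with the covariate alone, at 0.57 and -0.57, and *NR1D2* in the fit that joined the replicate block to the GC and length correction, also at -0.57. *PPARG* lost it with library size only, with the covariate and without *Esrrg* replicates 3 and 4, where its lowest value was 0.43.

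**Figure D5:**
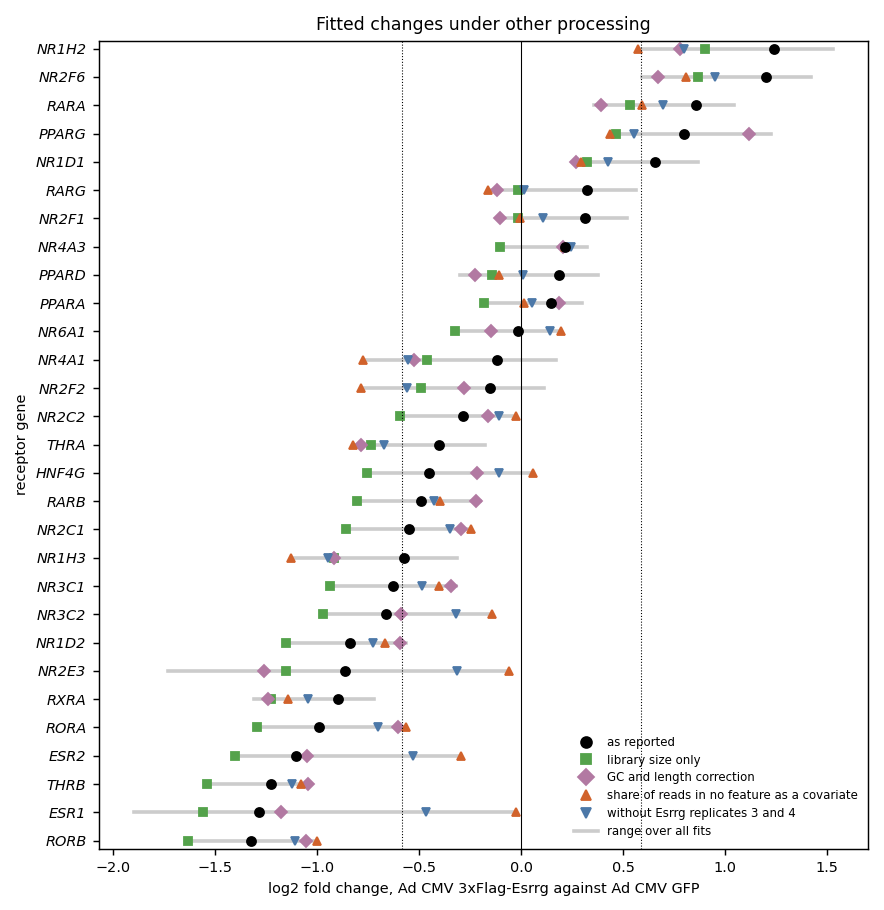
Fitted log2 fold change of each tested receptor as reported (black) and under 4 of the other fits, with a grey line for the range over all fits and dotted lines at the 1.5-fold limit. *RORB*, *THRB* and *RXRA* stay left of the lower limit throughout, and *NR2F6* stays right of the upper one.

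The genes of some receptors are neighbours. *THRA*, *NR1D1* and *RARA* lie on chromosome 17 between 40058290 and 40357643, and *NR1D2*, *THRB* and *RARB* on chromosome 3 between 23945286 and 25597932 (GRCh38, GENCODE 44). On chromosome 17 the log2 fold changes were -0.40, 0.65 and 0.86, and on chromosome 3 they were -0.84, -1.23 and -0.49. The chromosome 17 genes held 2 of the 5 called higher, and the chromosome 3 genes 2 of the 10 called lower. Over all tested receptors 17.2% were called higher and 34.5% lower, and over protein-coding genes 25.9% and 12.4%. Also on chromosome 3, outside this stretch, *PPARG* was called higher (0.80) and *NR2C2* was not called. Whether position plays a part was not tested.

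The genes that handle the ligands or answer to the receptors were counted in 9 lists, 96 genes in all, of which 82 were tested. With Ad CMV 3xFlag-*Esrrg* 29 were called higher (35.4%) and 10 lower (12.2%), beside 17.3% and 16.8% of all genes and 25.9% and 12.4% of protein-coding genes, so that the share lower was near that of protein-coding genes. Nothing particular to a single list can be read from its count. Of the 16 coregulators tested 3 rose and 2 fell. *PPRC1*, a relative of the PGC-1 coactivators, rose by 1.01 and *HDAC3*, the histone deacetylase of the NCoR complex, by 0.75 on the log2 scale. *TBL1XR1*, another part of that complex, fell (log2 fold change -0.96), as did the coactivator *NCOA2* (-0.64). *NCOR1* (log2 fold change -0.15), *NCOA1* (-0.25) and *NCOA3* (-0.02) were not called. *PPARGC1A*, the PGC-1α coactivator, had means of only 0.435 and 0.554 normalized CPM (adjusted p = 0.47).

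Of 9 retinoid genes tested 4 rose and 3 fell. The binding proteins *CRABP1* and *CRABP2* rose by 2.03 (SE 0.21) and 1.5 (SE 0.20) on the log2 scale, while *ALDH1A3*, which makes retinoic acid, fell by 1.86 (SE 0.14). Exons of opposite-strand genes cover 45.9% of the exon bases of *CRABP1* and 32.1% of those of *ALDH1A3*, against 0 for *CRABP2*. The 9 thyroid hormone genes held 1 higher and 4 lower. The corepressor gene *HR* (log2 fold change -1.99), the thyroxine transporter gene *SLCO1C1* (-1.47) and *KLF9* (-1.88), which thyroid hormone and glucocorticoids both induce, were among those that fell. *THRB* fell with them, as given above.

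The LXR list held 3 higher and 0 lower of 7 tested, among them *SCD* (stearoyl-CoA desaturase, 1.09) and *SREBF1* (a regulator of lipid synthesis, 0.61). Not called were *ABCA1* (-0.02, adjusted p = 0.86), *MYLIP* (-0.37, adjusted p = 0.014), *APOE* (-0.23) and *LPCAT3* (0.53). *LPCAT3* shares 66.0% of its exon bases with opposite-strand genes. The PPAR list held 3 higher and 0 lower of 8, *ACADVL* (0.82), *PLIN2* (0.66) and *CPT1A* (0.62), which burn or store fatty acids. Neither of the 2 vitamin D enzymes tested was called. The 14 clock genes held 4 higher and 1 lower, with *BHLHE40* (1.4), *BHLHE41* (0.96) and *TEF* (0.95) the furthest from 0. Of 9 glucocorticoid genes 5 rose and 1 fell. *SGK1*, a kinase, rose by 1.70 and *DUSP1*, a phosphatase, by 1.26 while *NR3C1* itself fell, and *KLF9* was the one that fell. Some genes stand in more than 1 list, and many are also under the control of other factors.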

How the data were processed

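RNA of SH-SY5Y cells was sequenced after ribosomal RNA depletion with a directional kit, in 3 Ad CMV GFP and 3 Ad CMV 3xFlag-*Esrrg* libraries. The authors deposited raw read counts per human gene. The submitters' processing notes name CASAVA, Trim Galore 0.6.7, STAR 2.7.9a, GRCh38, HTSeq 0.11.3 and DESeq2. The annotation release and the strand setting are not given in the sources used here. Of 794 genes lying wholly inside exons of opposite-strand genes, 14 (1.76%) had a mean of 10 or more counts, against 33.7% of 41024 genes with no overlap, so opposite-strand reads were treated as not separable. The 44 duplicate rows of the Y pseudoautosomal regions and the 5 summary entries of the counter were left out of library sizes and tests. Identifiers were matched without version to GENCODE 44 (60419 of 67016, 90.2%), which is not known to be the authors' release. No more than 6.97% of the 31-base words of any member were found in 261 alternate contigs.

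Groups came from the labels. The analysis used edgeR 4.0.16 (R 4.3.3), with filterByExpr (24500 genes), TMM scaling and the quasi-likelihood test without covariates. The limits for a call, those of the study's methods, were a 1.5-fold change and 0.05 for the Benjamini-Hochberg adjusted p. Per-kilobase levels divide by merged exon length, bases shared with other genes included. Levels and shares of *NR2C2* (61.9% shared), *NR1H2* (22.1%) and *RARA* (21.4%) may therefore be too low, and ratios with them may be off in size. Intervals and the floor of 3 counts cover counting and library spread only. No libraries were duplicates, since chi-square per gene between libraries of a group was at least 3.49. A deposited count of 24969759 to 40859666 reads on genes per library set the precision.

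The members and lists were chosen with earlier results of these data known. All 37 members are named. Of each pathway list up to 3 called genes with the largest absolute log2 fold change and a mean of at least 50 counts are named, plus *PPARGC1A*, *NCOR1*, *NCOA1*, *NCOA2* and *NCOA3*. The LXR genes that were not called are named as well. A further gene fixed by name is not reported here. *MRPS25*, *NAPSA* and *RARA-AS1* were named because their exons overlap members. The alternatives were DESeq2 1.42.0, RLE factors, library size only, no filter, 10 counts in every library, no fold limit, a 2-fold limit, a test against 1.5-fold, protein-coding genes only, libraries left out, the replicate number as a block, a GC and length correction (mgcv 1.9.3), both together, and the share of reads assigned to no feature as a covariate. In simulated data for this comparison on 24500 genes with 200 changed ones, edgeR recovered 175 with 5 false calls and DESeq2 165 with 5, the GC and length correction 175 with 6, and the test against 1.5-fold 122 with 0. Genes were simulated independently, with libraries of a group differing in depth and random spread only. In the data 8351 genes were called and the *Esrrg* libraries were not alike, so these numbers do not measure false calls here. Tables and plots used Python 3.11.15, and promoters came from RefSeq.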

Additional observations from a re-analysis of the deposited data

Results flagged for a closer look

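Reads that the counter kept out of all genes were not used in the comparisons and differed between the groups. Ambiguous reads, which touch more than 1 gene, made up 4.55% to 4.87% of the control libraries and 5.69%, 9.84% and 9.79% of *Esrrg* replicates 2, 3 and 4, so that the lowest *Esrrg* library was above every control library. Reads aligned to several places made up 7.16% to 7.41% of the control libraries and 9.33%, 12.7% and 13.0% of the same *Esrrg* libraries. *Esrrg* replicate 2 was nearest the control on both measures. Their part in the changes of the receptors was not tested.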

How the results depend on the processing

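The number of receptors called higher (5 as reported) was 2 with library size only, with the covariate and with the 2-fold limit. It was 3 with the test against 1.5-fold, without *Esrrg* replicates 3 and 4, and with the correction for GC and length, alone or joined to the replicate block. The number called lower (10 as reported) was 16 with library size only, 5 with the test against 1.5-fold and 4 with the 2-fold limit. With each library left out in turn, 4 to 5 were called higher and 8 to 10 lower. The same alternatives were applied, after seeing the data, to the pathway lists, *ESRRG* and the median of the receptors. Pathway genes called higher (29) were 15 with library size only and with the test against 1.5-fold, 18 without *Esrrg* replicates 3 and 4, 12 with the covariate and 11 with the 2-fold limit, and 24 to 37 with each library left out. Those called lower (10) were 18 with library size only, 6 with the 2-fold limit and 11 to 14 with each library left out. The median log2 fold change of the receptors (-0.40) was -0.31 with DESeq2, -0.32 with RLE factors, -0.74 with library size only, -0.55 with protein-coding genes only, -0.32 without *Esrrg* replicates 3 and 4, -0.28 after the correction for GC and length, -0.30 after it and the replicate block together and -0.14 with the covariate, and ran from -0.43 to -0.27 with each library left out. *ESRRG* was called in every fit, at 2.57 to 3.50.

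Of 493 single-gene comparisons with an alternative, 403 kept their direction and their side of the threshold, 40 lost a call, 24 gained one and 26 turned sign, all of the last in genes not called. With library size only, *RARG* turned to -0.015, *PPARA* to -0.18, *PPARD* to -0.14, *NR4A3* to -0.11 and *NR2F1* to -0.018. With the GC and length correction, *RARG* turned to -0.12, *PPARD* to -0.23 and *NR2F1* to -0.10, and with the replicate block added to -0.13, -0.30 and -0.075. With the covariate, *RARG* turned to -0.16, *PPARD* to -0.11, *NR2F1* to -0.0047, *HNF4G* to 0.059 and *NR6A1* to 0.20. *NR6A1* was 0.075 with DESeq2, 0.062 with RLE factors and 0.14 without *Esrrg* replicates 3 and 4, and ran from -0.022 to 0.056 with each library left out. With each library left out, *NR4A1* ran from -0.35 to 0.16, and without *Esrrg* replicate 2 *NR2F2* turned to 0.11. The replicate block turned *NR4A1* to 0.17 and gave 5 receptors higher and 12 lower. Labels do not say that numbers pair the libraries, and deviations of same-numbered libraries correlated at r = 0.08 for replicate 3 and -0.0001 for replicate 4 across genes. The cause of these shifts was not tested. Depth limits *ESR1*, *ESR2*, *NR3C2*, *NR4A1*, *NR4A3*, *NR2E3*, *NR2F2* and *HNF4G*, whose libraries held 157 counts or fewer. *NR5A2* was called by DESeq2 and without the filter. 3 libraries against 3 limit all calls.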
